A study of Homo sapiens with 6 samples.

Results

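The enzymes that write and erase chemical marks on histones and DNA were followed in Caco-2 cells with and without a knockout of CBS. The set holds 90 of the 16781 genes in the deposited expression table. Of these, 73 were taken because their symbol starts with KDM, KMT, KAT, HDAC, SIRT, DNMT, PRMT or SETD followed by a digit, and 17 by name: TET1, TET2, TET3, EZH1, EZH2, EED, SUZ12, EHMT1, EHMT2, SUV39H1, SUV39H2, NSD1, NSD2, NSD3, DOT1L, EP300 and CREBBP. The rule goes by name and uses no measured value, but the set was chosen with earlier results of these data known. A filter on low counts left 87 of the 90 for testing, and the 3 that did not pass were DNMT3L, KDM5D and PRMT8.

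Caco-2 is an established cell line of human colon adenocarcinoma that comes to resemble absorptive enterocytes at confluence. Poly(A) RNA was sequenced from 3 libraries of unmodified cells (WT) and 3 of a stable CBS knockout made with CRISPR/Cas9 (CBS KO). To make the knockout, a lentivirus delivered Cas9 together with the guide and resistance to puromycin, and infected cells were kept under puromycin until resistant cells could be collected. The WT cells carried neither vector nor resistance, so loss of CBS cannot be told apart from infection and selection in these groups. The labels give no passage, density or time for either group, and they do not say whether the resistant cells were 1 clone.

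Histone methyltransferases move a methyl group from S-adenosylmethionine to lysines or arginines of the histone tails, and the position decides which reader proteins bind: H3K4 methylation marks promoters and enhancers of active genes, H3K36 methylation marks transcribed gene bodies, and H3K9 and H3K27 methylation mark silenced chromatin. Acetyltransferases and deacetylases set lysine acetylation in the same way, DNMT enzymes methylate cytosine in CpG pairs, and demethylases of the JmjC and TET families remove methyl groups with oxygen, iron and 2-oxoglutarate. CBS withdraws homocysteine from the methionine cycle, the cycle that renews S-adenosylmethionine. In the intestine, the balance of these marks accompanies the passage of crypt cells to differentiated enterocytes.

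The estimated counts summed to 16097680 to 16176745 in the WT libraries and to 12805180 to 14307287 in the CBS KO libraries. CBS itself fell 2.22-fold, from 50.8 ± 2.11 to 22.8 ± 3.81 CPM (counts per 1000000 counts of a library after TMM scaling, the trimmed mean of M values; mean ± SD, n = 3), with a share of reads that may belong to its near-identical copy CBSL. Epithelial markers were present throughout, with a summed level of 6535 to 7147 CPM in WT libraries and 8141 to 8956 CPM in CBS KO libraries, and 4 of the 7 were called higher and 2 lower. Fibroblast markers summed to 202 to 229 CPM in WT and 182 to 197 CPM in CBS KO (1 of 3 tested higher, 1 lower), nearly all of it COL1A1, and leukocyte markers to 11.2 to 12.8 and 12.2 to 12.8 CPM (1 of 2 tested higher, 1 lower), with PTPRC at or near 0. In bulk RNA, fewer cells of a type and less RNA per cell cannot be told apart. Nothing in the labels says that replicate libraries were separate cultures, and the p-values then describe only how these samples spread, which may be technical.

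As a group, the 87 tested enzymes took a smaller part of the mRNA in CBS KO. Reads of the 90 genes made up 0.724 to 0.736% of a WT library and 0.485 to 0.551% of a CBS KO library. Per gene length, in TPM (transcripts per 1000000), their levels summed to 3139 to 3217 in WT and 1824 to 2078 in CBS KO. The groups did not overlap on either measure, but much of this drop was not particular to the enzymes. A typical gene fell too, with a median log2 change of -0.36 under scaling by library total and -0.51 in TPM. The enzymes had medians of -0.53 and -0.71, and the gap to other genes was not tested. The arginine methyltransferases, the DNA methyltransferases and most acetyltransferases fell, while KDM7A, EZH1, KDM6A, KMT5B and NSD3 rose.

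By edgeR's quasi-likelihood test with Benjamini-Hochberg adjustment over all 13028 genes tested (adjusted p under 0.05), 24 of the 87 were higher in CBS KO, 43 were lower and 20 were not called. The share called, 77.0%, was close to the 77.2% of all genes. The directions were less even: 27.6% of the enzymes were higher against 38.4% of all genes, and 49.4% were lower against 38.9%. Of the called enzymes, 32 changed by less than 1.5-fold. At 2-fold or more, 17 enzymes (19.5%) were lower against 11.5% of all genes, and 2 (2.30%), HDAC9 and KDM7A, were higher against 12%. The 3 CBS KO values lay all below the 3 WT values for 47 enzymes (54.0%, all genes 40.1%), all above them for 24 (27.6%, all genes 38.9%), and overlapped them for 16. Of all genes, 79.1% did not overlap in either direction. The median log2 fold change was -0.18 over the enzymes and -0.01 over all genes, with the middle 50% of enzymes between -0.77 and 0.22 and that of all genes between -0.54 and 0.53.

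**Figure D1:**
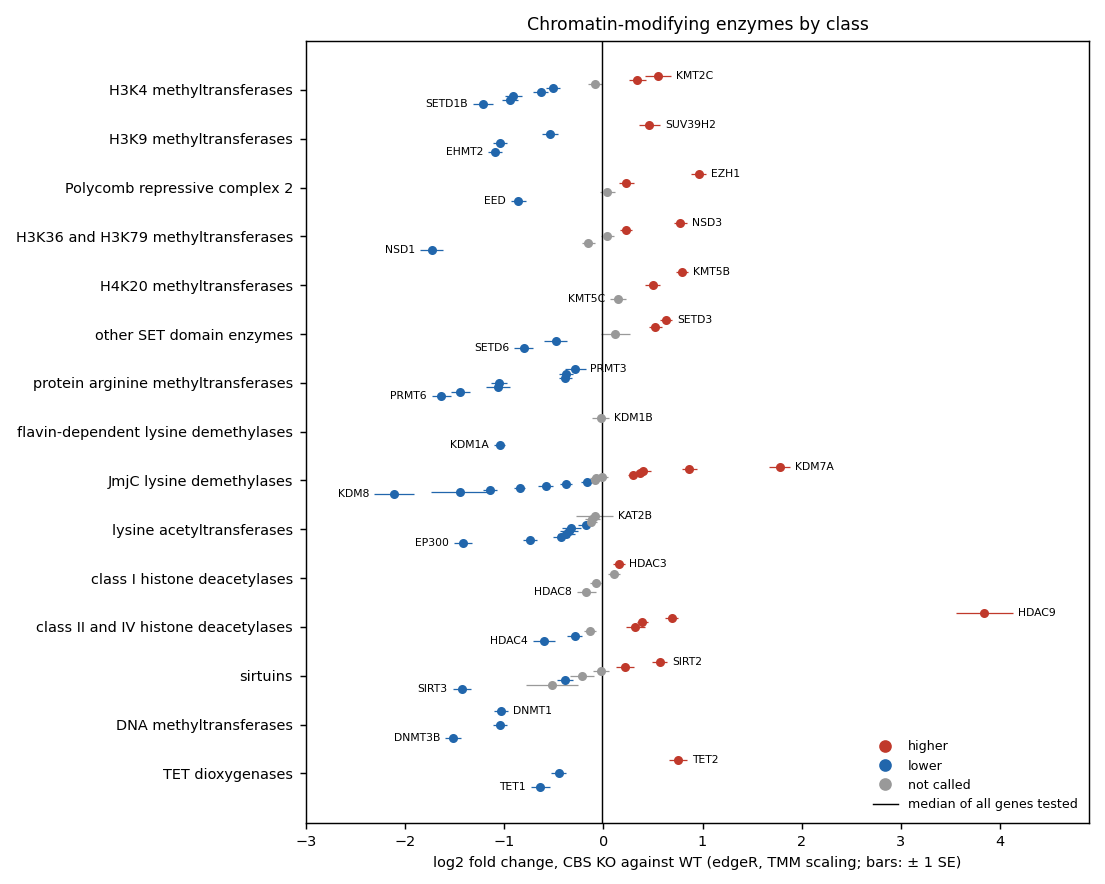
Log2 fold change of CBS KO over WT (horizontal axis, TMM scaling) for each of the 87 tested enzymes, arranged by class, with bars of ±1 standard error from the fit and a black line at the median of all genes tested. All 7 arginine methyltransferases and all 3 tested DNA methyltransferases lie to the left of the line, and HDAC9 and KDM7A lie farthest to the right.

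The scaling of the libraries bore on the rises more than on the falls. Scaling by the library total put the median of all genes at -0.36, FPKM put it at -0.31 and TPM at -0.51, so a small rise under TMM became no change or a fall under these. A total of 42 enzymes (48.3%) were called lower under each of 5 scalings (TMM, DESeq2's median ratio, library total, FPKM and TPM), against 36.7% of all genes. Only 6 (6.90%) were called higher under each of them, against 14.4% of all genes: HDAC9, KDM7A, EZH1, KDM6A, KMT5B and NSD3, with KDM6A at the threshold in TPM. HDAC9 passed the filters on low values only through the CBS KO libraries, so its place among the rises depends on that. Under the library total 11 were higher and 63 lower (all genes 22.8% and 56.8%), and under TPM 6 were higher and 70 lower (all genes 15.5% and 66.1%). Relative to the median of all genes the enzymes remained low: their own median was -0.53 under the library total, -0.48 in FPKM and -0.71 in TPM. Fold changes below are on the TMM scale unless another is named, and those from TPM are on the log2(TPM + 1) scale, which understates the change of low genes. Counts called in a class are to be read beside 38.4% higher and 38.9% lower of all genes, and no class was tested as a set.

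**Figure D2:**
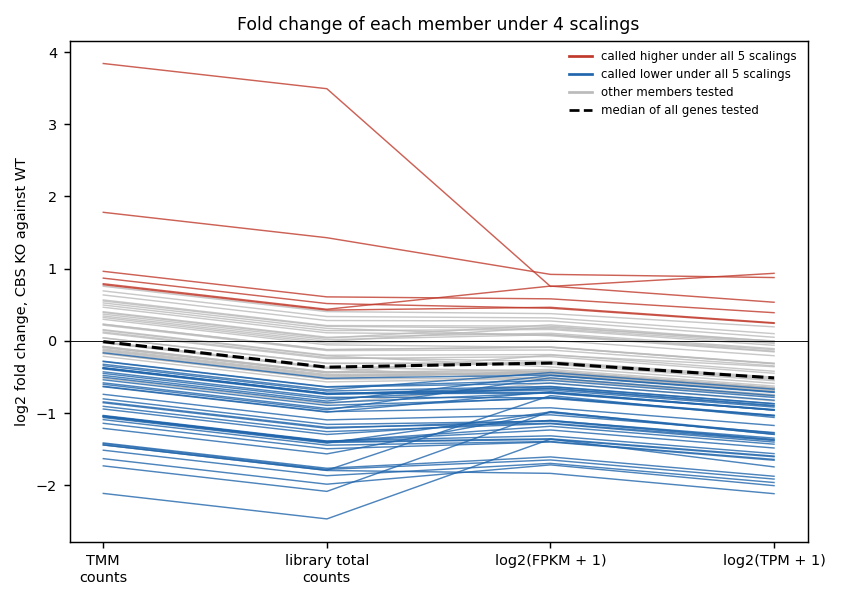
Log2 fold change of each tested enzyme (CBS KO over WT) under TMM, library total, FPKM and TPM scaling, with 1 line per enzyme and colour for those called in the same direction under all 5 scalings. Most lines follow the dashed median of all genes downward from TMM (-0.01) to TPM (-0.51), those that bend toward 0 in FPKM or TPM belong to low genes such as HDAC9 and KDM8, and 42 enzymes stay called lower and 6 higher.

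DNA methylation enzymes fell at the writing step. All 3 tested DNA methyltransferases were lower, by about the same factor for DNMT1, which copies methylation onto newly made strands, and DNMT3A, which sets it afresh. DNMT3B (Entrez 1789, chromosome 20, 32762385 to 32809356), the other de novo enzyme, stood at 76.6, 74.3 and 84.1 CPM in WT and at 30.3, 25.4 and 26.4 CPM in CBS KO, a log2 fold change of -1.52 (SE 0.08, adjusted p 4.95e-11). DNMT1 (Entrez 1786, chromosome 19, 10133346 to 10194953) measured 134, 129.5 and 152 CPM in WT against 70.8, 64.5 and 67.3 CPM in CBS KO, a 2.05-fold fall. In both genes the highest knockout library lay well under the lowest WT library. DNMT3A fell 2.06-fold, from 80.6 ± 1.08 to 39.2 ± 1.79 CPM. The cofactor DNMT3L was near the detection limit in all libraries, with 22 counts over WT and 5 over CBS KO. Per length, the summed level of the class dropped from 127 to 38.8 TPM.

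The TET dioxygenases, which oxidise methylcytosine on the way to its removal, did not move together. TET1 fell 1.55-fold, from 35.5, 34.5 and 36.2 CPM in WT to 25.8, 23.99 and 18.6 CPM in CBS KO, and TET3, the most abundant of them per length, fell 1.37-fold, from 102, 104 and 102 to 84.3, 72.9 and 67.97 CPM. TET2, the member without a CXXC domain of its own, read 34.6, 34.9 and 34.5 CPM in WT and 66.2, 60.1 and 49.4 CPM in CBS KO, a log2 fold change of 0.76 (SE 0.09, adjusted p 1.01e-06) whose call was lost in TPM (0.19, adjusted p 0.188). Within a library, the ratio of TET2 to TET1 counts went from 0.979 in WT to 2.57 in CBS KO, and this ratio does not depend on the scaling. In all 3 genes CBS KO 3 was the lowest knockout library.

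Of the 8 genes grouped here as H3K4 methyltransferases, 5 fell, 2 rose and KMT2A was not called. SETD1A and SETD1B, the catalytic subunits of the 2 SET1 complexes that place most H3K4 trimethylation, both fell: SETD1B (Entrez 23067, chromosome 12, 121790155 to 121832656) from 22.5, 20.3 and 23.3 CPM to 9.67, 10.1 and 8.78 CPM, and SETD1A 1.92-fold. KMT2D fell 1.88-fold, KMT2E 1.55-fold and KMT2B 1.42-fold, the last from 103, 97.04 and 98.00 CPM to 77.1, 65.6 and 67.6 CPM. KMT2C, the sister of KMT2D in enhancer methylation, measured 101, 98.4 and 96.4 CPM in WT and 167, 155 and 111 CPM in CBS KO, a log2 fold change of 0.55 (SE 0.13, adjusted p 0.00315) that was 0.20 under the library total and -0.04 in TPM. Its CBS KO 3 value lay nearer to the WT values than to the other knockout values. The monomethyltransferase SETD7 was called higher (1.27-fold), with a value near 0 under the library total (-0.01). Per length, KMT2B (26.04 ± 1.27 TPM), KMT2E (25.9 ± 1.22 TPM) and KMT2D (24.6 ± 0.826 TPM) headed the class in WT without differing beyond their spread, and stood at 12.95 ± 1.52, 11.01 ± 1.69 and 8.81 ± 1.88 TPM in CBS KO.

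Of the 4 enzymes of H3K9 methylation, 3 fell and 1, SUV39H2, rose on the TMM scale. EHMT1 and EHMT2, which form the heterodimer behind most mono- and dimethylation of H3K9, fell by nearly the same factor. EHMT2 (Entrez 10919, chromosome 6, 31879759 to 31897698) stood at 102, 95.7 and 103 CPM in WT and at 48.7, 42.5 and 49.6 CPM in CBS KO, a log2 fold change of -1.09 (SE 0.07, adjusted p 5.85e-10), and EHMT1 fell 2.06-fold. SUV39H1, a trimethylase of pericentromeric chromatin, fell 1.45-fold, from 23.5 ± 0.48 to 16.2 ± 0.382 CPM. Its paralog SUV39H2 measured 17.3, 13.1 and 17.3 CPM in WT and 21.6, 22.1 and 22.03 CPM in CBS KO, a 1.38-fold rise on the TMM scale that turned to -0.12 in TPM. The ratio of SUV39H2 to SUV39H1 counts was 0.674 in WT and 1.35 in CBS KO, and its groups did not overlap.

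Polycomb repressive complex 2 trimethylates H3K27 and needs a catalytic subunit, EZH1 or EZH2, together with EED and SUZ12. EZH1 (Entrez 2145, chromosome 17, 42700275 to 42745040), the form that prevails in resting and differentiated cells, rose from 26.1, 24.7 and 22.7 CPM in WT to 49.7, 44.6 and 49.03 CPM in CBS KO, a log2 fold change of 0.96 (SE 0.08, adjusted p 7.3e-09). EZH2, the form of dividing cells, showed 51.5 ± 3.77 CPM against 53.00 ± 4.25 CPM in CBS KO and was not called. EED (Entrez 8726, chromosome 11, 86244753 to 86287615), which binds the finished mark, fell from 47.6, 45.3 and 50.9 CPM to 25.5, 28.04 and 25.9 CPM (log2 fold change -0.86, SE 0.08, adjusted p 2.26e-08). SUZ12 read 79.5, 85.6 and 87.9 CPM in WT and 104, 105 and 87.8 CPM in CBS KO, a 1.17-fold difference whose groups overlapped and whose sign turned under the library total (-0.12), FPKM (-0.08) and TPM (-0.31). Its call was lost without WT 1 (adjusted p 0.0677) and without CBS KO 2 (adjusted p 0.0666). The ratio of EZH1 to EZH2 counts went from 0.479 to 0.907 and that of EZH1 to EED from 0.514 to 1.81. Per length EZH2 remained above EZH1 in both groups, at 27.03 ± 2.72 against 14.2 ± 1.33 TPM in CBS KO.

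The H3K36 methyltransferases held both the steepest fall of any histone lysine methyltransferase and 1 of the 6 rises that held in each scaling. NSD1 (Entrez 64324, chromosome 5, 177131798 to 177300213), a dimethyltransferase, went from 20.8, 22.7 and 20.2 CPM in WT to 7.54, 5.62 and 5.94 CPM in CBS KO, a log2 fold change of -1.73 (SE 0.12, adjusted p 7.24e-10). NSD3 (Entrez 54904, chromosome 8, 38269704 to 38382271) went the other way, from 84.9, 86.8 and 80.8 CPM to 157, 145 and 131 CPM (log2 fold change 0.78, SE 0.07, adjusted p 2.42e-08). NSD2, at 222, 221 and 224 CPM in WT and 243, 235 and 209 CPM in CBS KO, was not called, and its value of 0.04 was -0.31 under the library total. The 3 paralogs share their catalytic domain, and the ratio of NSD3 to NSD1 counts was 3.97 in WT and 22.9 in CBS KO. SETD2, which adds the last methyl group at H3K36, was not called (63.7 ± 3.40 to 57.4 ± 2.54 CPM). DOT1L, the H3K79 methyltransferase, was called higher (1.17-fold) and turned to -0.12 under the library total and -0.31 in TPM.

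H4K20 methylation is built in steps, with KMT5A placing the first methyl group and KMT5B and KMT5C the next. KMT5B (Entrez 51111, chromosome 11, 68154863 to 68213648) rose from 102, 95.01 and 90.4 CPM in WT to 165, 165 and 167 CPM in CBS KO, a log2 fold change of 0.79 (SE 0.06, adjusted p 3.68e-09), and also rose per length, from 60.2 ± 4.81 to 87.5 ± 4.21 TPM. KMT5A measured 29.2, 33.3 and 32.6 CPM in WT and 44.6, 43.5 and 45.9 CPM in CBS KO, a 1.41-fold rise that was -0.06 in TPM, and KMT5C was not called. Of the 15 classes, this was the one whose summed TPM was higher in the knockout, at 104 in WT and 123 in CBS KO.

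Among the other SET domain enzymes, 2 rose, 2 fell and SETD9 was not called. SETD3, the histidine methyltransferase of actin, went from 68.5, 67.6 and 70.4 CPM to 105, 108 and 107 CPM, a 1.55-fold rise that was 0.05, no longer called, in TPM. SETD5 went from 115, 109 and 111 CPM to 168, 166 and 147 CPM, a 1.44-fold rise that was -0.15 in TPM. SETD6, which methylates the RELA subunit of NF-kB, fell from 18.5, 17.4 and 18.3 CPM to 9.35, 10.99 and 10.7 CPM (1.75-fold), and SETD4 fell 1.39-fold.

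All 7 tested protein arginine methyltransferases fell, in each of the 5 scalings, against 36.7% of all genes called lower in each. PRMT6 (Entrez 55170, chromosome 1, 107056674 to 107059294), which places the asymmetric dimethyl mark at arginine 2 of H3, fell most: 29.2, 25.2 and 29.1 CPM in WT against 9.43, 8.35 and 9.11 CPM in CBS KO, a log2 fold change of -1.63 (SE 0.10, adjusted p 2.27e-10). PRMT7 (Entrez 54496, chromosome 16, 68311019 to 68360870), the enzyme restricted to monomethylation, fell from 34.9, 39.4 and 39.8 CPM to 15.7, 13.9 and 12.4 CPM (log2 fold change -1.44, SE 0.09, adjusted p 5.59e-10, and -2.12 in TPM). PRMT5, the main symmetric dimethyltransferase, whose substrates include spliceosomal Sm proteins, fell 2.07-fold, from 102, 103 and 118 CPM to 47.9, 51.1 and 56.4 CPM. PRMT9, which methylates the splicing factor SF3B2, fell 2.09-fold, from 10.1, 10.6 and 11.5 CPM to 5.41, 5.19 and 4.80 CPM. In none of these 4 did a knockout library reach a WT library.

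The remaining arginine methyltransferases fell less. PRMT1, which makes most asymmetric dimethylarginine and is the most abundant of the class per length, went from 122, 129.8 and 140.4 CPM to 94.5, 96.6 and 110.3 CPM, or from 245 ± 17.3 to 125 ± 3.16 TPM, a 1.30-fold fall on the TMM scale. PRMT2 fell 1.30-fold and the ribosomal protein methyltransferase PRMT3 fell 1.22-fold. PRMT3 lost its call without WT 3 (adjusted p 0.113) and in the DESeq2 Wald test (adjusted p 0.0538). PRMT8, an enzyme of neurons, had 0 counts in WT and 1 count in CBS KO. The class summed to 466 TPM in WT and 205 TPM in CBS KO, and its median log2 fold change was -1.05.

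**Figure D3:**
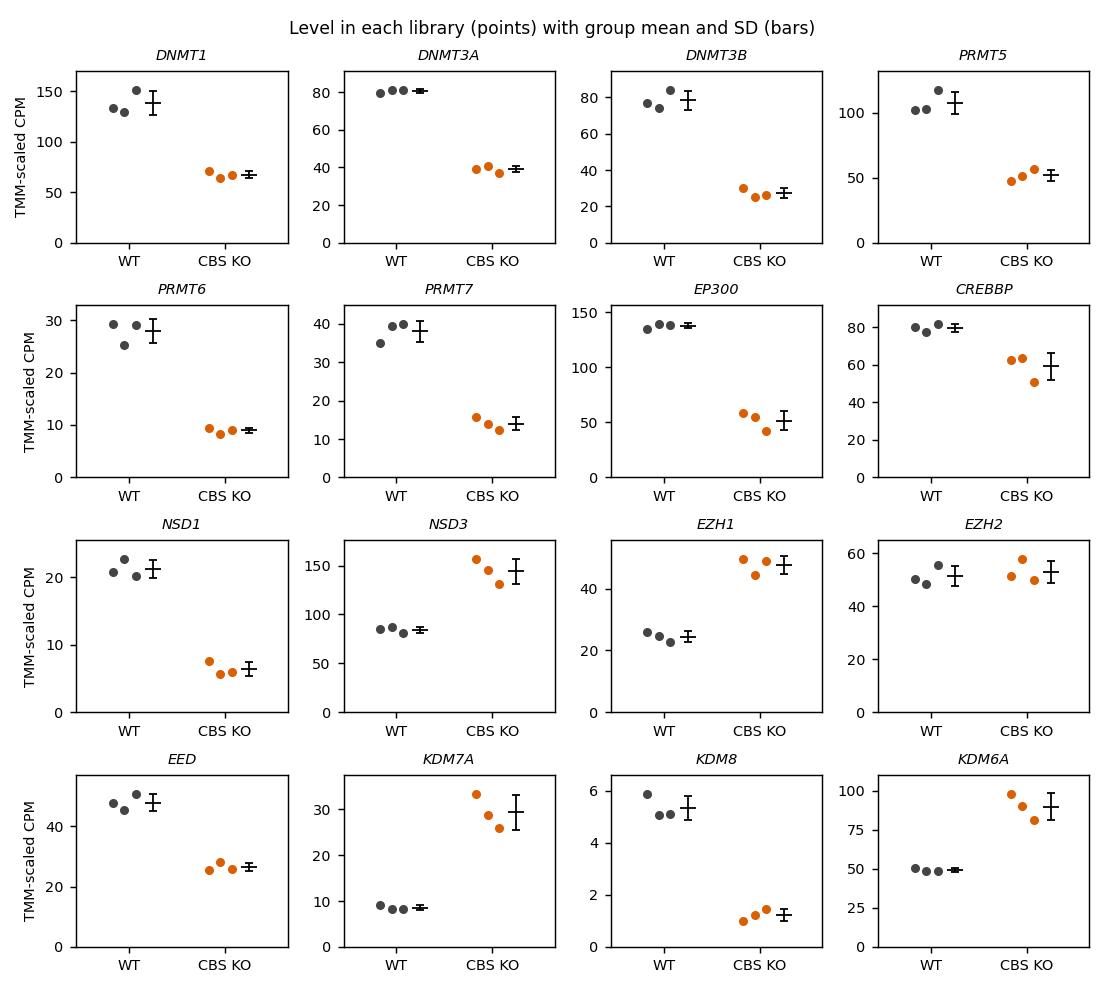
TMM-scaled CPM (vertical axes, from 0) of 16 enzymes in each WT and CBS KO library, with points for libraries and bars for mean ± SD (n = 3). The 3 DNA methyltransferases and PRMT5, PRMT6 and PRMT7 sit lower in each CBS KO library than in any WT library. EZH1, KDM6A, KDM7A and NSD3 sit higher, and EZH2 overlaps. These 4 higher enzymes were also called higher under each of the 5 scalings, KDM6A only at the threshold in TPM.

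Lysine demethylases of the flavin-dependent type remove methyl groups from H3K4 within the CoREST and related complexes. KDM1A (Entrez 23028, chromosome 1, 23019468 to 23083689) fell from 157, 158 and 150.3 CPM in WT to 76.00, 74.4 and 75.2 CPM in CBS KO, a log2 fold change of -1.05 (SE 0.06, adjusted p 6.93e-11), and the knockout libraries lay within a few percent of each other. KDM1B was not called.

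The 15 tested JmjC demethylases ranged from a log2 fold change of -2.11 to 1.78: 7 fell, 5 were called higher and 3 were not called. KDM7A (Entrez 80853, chromosome 7, 140084746 to 140176983), which removes dimethylation from H3K9 and H3K27, rose from 9.12, 8.23 and 8.30 CPM in WT to 33.4, 28.8 and 25.9 CPM in CBS KO, a log2 fold change of 1.78 (SE 0.11, adjusted p 1.72e-10) that was 0.88 in TPM. KDM8 (Entrez 79831, chromosome 16, 27203526 to 27221768) fell furthest, from 5.88, 5.05 and 5.08 CPM to 0.984, 1.23 and 1.46 CPM, with a log2 fold change of -2.11 (SE 0.20, adjusted p 5.73e-08), on 292 counts over WT and 44 over CBS KO. The ratio of KDM7A to KDM8 counts was therefore 1.61 in WT and 25 in CBS KO. KDM6A (Entrez 7403, chromosome X, 44873188 to 45112779), an H3K27 demethylase of the KMT2C and KMT2D complexes, rose from 50.6, 48.4 and 48.5 CPM to 97.97, 90.3 and 80.9 CPM (log2 fold change 0.87, SE 0.07, adjusted p 1.5e-08). In TPM its value was 0.24, just inside the threshold with a pseudocount of 1 (limma, adjusted p 0.04999), and with a pseudocount of 0.1 the call was lost (adjusted p 0.0515). Its paralog KDM6B, an enzyme known for quick induction, was not called (52.4 ± 4.39 to 49.3 ± 3.81 CPM).

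The KDM4 enzymes, which act on H3K9 and H3K36, parted within the family. KDM4A (Entrez 9682, chromosome 1, 43650149 to 43705518) fell from 87.7, 91.01 and 89.6 CPM to 44.5, 39.02 and 37.97 CPM, a log2 fold change of -1.14 (SE 0.07, adjusted p 3.41e-10). KDM4B fell 1.30-fold and KDM4D 2.72-fold, the latter on 171 counts over WT and 41 over CBS KO. KDM4C was called higher (1.32-fold) on the TMM scale, with 0.05 under the library total and -0.11 in TPM. In the KDM3 pair, which acts on H3K9, KDM3B fell 1.80-fold, from 255 ± 1.60 to 142 ± 9.09 CPM. KDM3A, a known target of the hypoxia response and the most abundant of the class per length, measured 200.4, 191 and 189 CPM in WT and 266, 241 and 243 CPM in CBS KO, a 1.29-fold rise that was 0.02 under the library total and -0.14 in TPM. Among the rest, KDM2B fell from 34.5 ± 1.37 to 23.00 ± 0.892 CPM and KDM5A fell 1.12-fold, KDM5C was called higher (1.23-fold, -0.06 under the library total and -0.32 in TPM), and KDM2A and KDM5B were not called. The call of KDM5A was lost without CBS KO 2 (adjusted p 0.0546).

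Promoter sequences are shown for KDM7A and KDM8, the demethylases with the largest rise and the largest fall, and for KDM6A, KDM4C and HDAC9, picked after the search because they hold an AP-1 match. Each is the 250 bases before the first gene start listed in the RefSeq table (GRCh38.p14), read 5′ to 3′ on the strand of the gene, and capitals mark matches on either strand to the searched motifs TGANTCA (AP-1), TGACGTCA (CRE), CCAAT (bound by NF-Y), GGGCGG (GC box), TTTCGCGC and TTTGGCGC (E2F) and to the heat shock element.
KDM7A, chr7:140176984-140177233, minus strand: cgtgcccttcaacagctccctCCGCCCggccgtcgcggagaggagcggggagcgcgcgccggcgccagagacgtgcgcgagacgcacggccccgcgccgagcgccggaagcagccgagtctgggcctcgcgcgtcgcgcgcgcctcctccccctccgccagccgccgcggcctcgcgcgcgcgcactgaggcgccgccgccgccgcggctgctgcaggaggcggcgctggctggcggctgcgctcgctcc
KDM8, chr16:27203276-27203525, plus strand: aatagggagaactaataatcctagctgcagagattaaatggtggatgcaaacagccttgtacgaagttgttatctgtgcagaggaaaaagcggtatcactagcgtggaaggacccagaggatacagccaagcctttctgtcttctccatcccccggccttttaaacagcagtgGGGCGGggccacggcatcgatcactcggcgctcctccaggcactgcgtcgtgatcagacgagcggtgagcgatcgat
KDM6A, chrX:44872938-44873187, plus strand: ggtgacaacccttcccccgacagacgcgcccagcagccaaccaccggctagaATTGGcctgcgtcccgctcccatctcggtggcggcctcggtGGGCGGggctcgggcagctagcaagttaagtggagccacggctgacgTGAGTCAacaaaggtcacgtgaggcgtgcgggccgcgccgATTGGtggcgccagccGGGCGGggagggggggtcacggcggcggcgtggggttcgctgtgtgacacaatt
KDM4C, chr9:6757723-6757972, plus strand: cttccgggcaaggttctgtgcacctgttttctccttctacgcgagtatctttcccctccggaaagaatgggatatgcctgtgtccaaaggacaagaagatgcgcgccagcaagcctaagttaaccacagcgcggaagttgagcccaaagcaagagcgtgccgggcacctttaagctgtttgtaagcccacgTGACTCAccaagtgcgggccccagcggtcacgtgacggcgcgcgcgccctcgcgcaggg
HDAC9, chr7:18495499-18495748, plus strand: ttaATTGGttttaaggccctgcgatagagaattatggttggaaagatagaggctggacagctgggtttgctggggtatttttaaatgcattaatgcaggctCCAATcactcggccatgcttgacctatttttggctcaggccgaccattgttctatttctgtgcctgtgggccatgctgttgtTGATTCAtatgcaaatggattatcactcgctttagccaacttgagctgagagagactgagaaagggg
The KDM7A region had 50 CpG pairs and 81.6% G and C, and that of KDM8 had 15 and 53.2%, each with a single GC box. The regions of KDM6A, KDM4C and HDAC9 each held 1 AP-1 match, at positions -110, -59 and -67 from the start, counted at its first base. For KDM4C and HDAC9 the listed start lies inside the span of the gene, so other starts of these genes were not searched. Of the 80 tested enzymes with a promoter entry these were the 3 with such a match (3.75%), against 3.84% of 10659 tested genes, and all 3 were called higher, out of 21 higher and 40 lower enzymes with an entry. How all tested genes with such a match divided by direction was not counted, so the direction of these 3 has no measure beside it. KDM4C does not keep that direction in TPM, and a match is a description of the letters only. AP-1 was singled out among the motifs after the search, and the shares of the others are given further below.

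Of 10 lysine acetyltransferases, the enzymes that open chromatin by acetylating histone tails, 7 were called lower, none higher and 3 were not called. The shares over all genes were 38.9% lower and 38.4% higher. EP300 (Entrez 2033, chromosome 22, 41092592 to 41180077), which acetylates H3K27 at enhancers, fell from 135, 139 and 139 CPM in WT to 58.4, 54.5 and 42.2 CPM in CBS KO, a log2 fold change of -1.41 (SE 0.09, adjusted p 8.36e-10). Its close relative CREBBP fell less, 1.35-fold, from 79.6 ± 2.15 to 59.1 ± 7.02 CPM, and the ratio of CREBBP to EP300 counts went from 0.578 to 1.15. KAT14, of the ATAC complex, fell 1.67-fold, KAT5 1.30-fold, KAT6A 1.27-fold and KAT6B 1.25-fold. KAT7, the most abundant of the class per length, measured 136, 133 and 133 CPM in WT and 126, 125 and 117 CPM in CBS KO and was not called (adjusted p 0.0552). KAT8, the H4K16 acetyltransferase, fell 1.13-fold, a call that was lost with edgeR under DESeq2's median-ratio factors, in the DESeq2 Wald test (adjusted p 0.0568 and 0.135) and without WT 1, WT 2, WT 3 or CBS KO 1 (0.0582 to 0.109). KAT2A and KAT2B were not called.

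Class I histone deacetylases, of which HDAC1, HDAC2 and HDAC3 serve the Sin3, NuRD, CoREST and NCoR complexes, had log2 fold changes between -0.17 and 0.15. HDAC1, the most abundant per length at 214 ± 2.73 TPM in WT, measured 215, 210.3 and 211 CPM in WT and 195, 203 and 206 CPM in CBS KO and was not called, nor were HDAC2 and HDAC8. HDAC3 read 159.7, 161 and 158 CPM in WT and 172, 171 and 191 CPM in CBS KO, a 1.11-fold difference that was called but turned under the library total (-0.20), FPKM (-0.19) and TPM (-0.42). Its call was also lost without WT 1, WT 2, WT 3 or CBS KO 3 (adjusted p 0.0686 to 0.125).

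Of the class II and IV deacetylases, 4 of 7 were called higher and 2 lower. HDAC9 (Entrez 9734, chromosome 7, 18086825 to 19002416), a repressor partner of MEF2 factors, was at 0.275, 0.274 and 0.164 CPM in WT and at 3.28, 3.69 and 3.58 CPM in CBS KO, a log2 fold change of 3.84 (SE 0.29, adjusted p 3e-09) that was 0.93 in TPM. This largest fold of the 87 rested on 13 counts over WT, close to the 3 counts per library that a 0 would allow, and 126 over CBS KO. HDAC9 passed the filter only through its CBS KO libraries and was not tested at a mean of at least 5 CPM. HDAC5, another MEF2 repressor, rose from 71.3, 69.8 and 66.6 CPM to 104, 113 and 119 CPM, a log2 fold change of 0.69 (SE 0.07, adjusted p 6.08e-08) that was 0.34 under the library total and 0.10, no longer called, in TPM. HDAC6, the tubulin deacetylase, went from 142, 143 and 134 CPM to 182, 184 and 186 CPM, a 1.31-fold rise that was -0.0063 in TPM, and HDAC11 was 1.25-fold higher (-0.03 under the library total, -0.21 in TPM). HDAC4 fell from 11.3, 11.8 and 10.3 CPM to 7.38, 7.03 and 7.56 CPM (1.52-fold), HDAC10 fell 1.22-fold, and HDAC7 was not called.

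Sirtuins remove acyl groups at the cost of NAD+, SIRT1, SIRT6 and SIRT7 mainly in the nucleus, SIRT2 in the cytosol, and SIRT3, SIRT4 and SIRT5 in mitochondria. SIRT3 (Entrez 23410, chromosome 11, 215030 to 236931) fell most, from 50.04, 51.02 and 49.6 CPM in WT to 15.4, 18.9 and 21.8 CPM in CBS KO, a log2 fold change of -1.42 (SE 0.10, adjusted p 7.24e-10). SIRT5, a desuccinylase, fell 1.31-fold, and SIRT4, SIRT6 and SIRT7 were not called. SIRT2, the most abundant per length, went from 49.4, 51.9 and 44.96 CPM to 68.04, 70.2 and 78.3 CPM, a 1.48-fold rise that was 0.21 under the library total and -0.02 in TPM. The ratio of SIRT2 to SIRT3 counts was 0.971 in WT and 3.91 in CBS KO. SIRT1 was called 1.16-fold higher, but the groups overlapped, the sign turned under the library total (-0.13) and in TPM (-0.35), and the call was lost without WT 1, WT 2, WT 3, CBS KO 1 or CBS KO 2 (adjusted p 0.0821 to 0.250).

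Of the 20 members not called, 10 passed the threshold when 1 library was left out, and these were not all near it before. Without CBS KO 1, the adjusted p of HDAC7 went from 0.0607 to 0.0402, that of KAT7 from 0.0552 to 0.0247, that of KDM2A from 0.247 to 0.0269, that of KMT2A from 0.276 to 0.0366 and that of SETD2 from 0.0551 to 0.0217, all lower in CBS KO. Leaving out CBS KO 3 took HDAC8 from 0.115 to 0.0161, KAT2A from 0.171 to 0.0220 and SIRT6 from 0.120 to 0.00591, and leaving out CBS KO 2 took SIRT4 from 0.0813 to 0.0294, also lower. HDAC2 was called higher without WT 3 (0.102 to 0.0463), HDAC8 lower without WT 2 (0.0455) and SETD2 lower without WT 1 (0.0327). All of these p-values are from edgeR's quasi-likelihood test with Benjamini-Hochberg adjustment. Under the library total 19 of the 20 were called lower, and in TPM all 20 were.

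Counts of 2 enzymes in the same library can be compared without any scaling, and 12 pairs were set side by side in this way. Most join paralogs or partners. KDM7A and KDM8 are neither, and were paired as the JmjC enzymes with the largest rise and the largest fall. The pairs were chosen after their values had been seen, so the ratios are given as a description, and a ratio of counts is not a ratio of levels per length. In each pair the enzyme that rose more or fell less is the numerator, so the upward direction of every ratio follows from that choice. None of the 12 overlapped between the groups, and the share over other pairs of genes was not counted. Besides those given above, the ratio of NSD2 to NSD1 counts went from 10.5 to 36.4, TET2 to TET3 from 0.338 to 0.779, KDM6A to KDM6B from 0.942 to 1.82 and KMT2C to KMT2D from 0.363 to 0.995. The ratio rose least for EZH1 over EZH2 (1.89-fold). It rose most for KDM7A over KDM8 (15.0-fold), a size that reflects the pairing of 2 extremes. Next came NSD3 over NSD1 (5.74-fold) and SIRT2 over SIRT3 (4.02-fold).

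Of 49 tested writers and complex members (all methyltransferase classes, acetyltransferases and the Polycomb subunits), 29 (59.2%) were called lower and 11 (22.4%) higher, against 38.9% and 38.4% of all genes. Of 38 tested erasers (demethylases, deacetylases, sirtuins and TET enzymes), 14 (36.8%) were lower and 13 (34.2%) higher, shares near those of all genes. Whole classes were counted, so enzymes with other substrates are included. Among the writers these are SETD3, SETD6, PRMT3 and PRMT9, and among the erasers HDAC6 and the mitochondrial SIRT3, SIRT4 and SIRT5. The split was drawn after the classes had been seen and carries no test, and it depends on the scaling: in TPM the rises of the erasers HDAC3, HDAC6, HDAC11, KDM3A, KDM4C, KDM5C, SIRT1 and SIRT2 and of the writers DOT1L, KMT2C, KMT5A, SETD5, SETD7, SUV39H2 and SUZ12 turned, with HDAC6 (-0.0063) and SETD7 (-0.0016) next to 0.

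The other genes of the same complexes and cofactor routes, taken from lists, moved in both directions, with the same share of all genes called (38.4% higher, 38.9% lower) as the measure. Of 11 COMPASS core and scaffold subunits, which hold the H3K4 methyltransferases, 9 fell and 1 rose (median -0.55), led by MEN1 (2.12-fold lower) and CXXC1 (1.85-fold lower). Of 9 accessory subunits of Polycomb repressive complex 2, 5 fell and 4 rose, with the recruiting subunit JARID2 2.08-fold lower and the H3K36 reader PHF1 2.51-fold higher. Among 18 subunits of Polycomb repressive complex 1, the H2A ubiquitin ligase, 8 rose and 5 fell, led by PCGF5 (3.83-fold higher) and YAF2 (2.97-fold higher). The 19 subunits of deacetylase complexes had 9 higher and 6 lower, with the Sin3 scaffold SIN3A 2.37-fold lower and its partner SAP30 2.93-fold higher.

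The 19 subunits of acetyltransferase complexes had 6 higher and 8 lower, with TADA2A 2.12-fold lower and MSL2 1.69-fold higher. Of 20 tested writers and erasers outside the name rule, 5 rose and 11 fell, with the JmjC hydroxylases JMJD6 2.96-fold higher and RIOX1 2.87-fold lower. Among 16 readers, 9 rose and 5 fell, and UHRF1, which brings DNMT1 to hemimethylated DNA, fell 3.11-fold, L3MBTL2 2.12-fold. Of 13 tested genes of methyl donor and cofactor supply, 3 rose and 6 fell: MAT1A, a synthase of S-adenosylmethionine, fell 3.20-fold, and NAMPT, which makes the NAD+ precursor that sirtuins depend on, rose 2.99-fold. These rises and falls are on the TMM scale, and in TPM, where the median of all genes was -0.51, the list medians ran from -1.04 for COMPASS to -0.38 for the readers, with Polycomb repressive complex 1 and the deacetylase complexes (both -0.40) also above that of all genes.

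Features that the name rule did not use showed little order across the enzymes. Their coding sequences were longer than those of all tested genes (median 2628 against 1428 bases) and had more exons (18 against 9). Across the 87 genes, which are not independent replicates and share libraries, the log2 fold change had a correlation with log10 coding length of r = -0.01 (rho = -0.06), against r = -0.16 (rho = -0.18) across 12722 genes. The 2 enzymes with a single coding exon, PRMT6 and KDM4D, both fell, against 214 higher and 290 lower of 657 such genes. Promoters of the enzymes had a median of 23 CpG pairs (25 for the higher, 22.5 for the lower) against 21 for all genes, CCAAT was in 32.5% against 35.4%, and the GC box in 62.5% against 66.9%. The CRE was found for 2 enzymes, SUV39H2 and SIRT4 (2.5% against 2.85% of all). Neither E2F sequence nor the heat shock element was found in the 80 windows, against 0.910, 0.891 and 0.244% of all. Another gene of the table overlaps 20 of the enzymes, among them NSD3, SIRT3, PRMT7 and KDM1A, and the use of strand in counting is not given, so reads could be shared there.

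Among the enzymes, the knockout libraries differed by coding length. The values in this paragraph were not computed over all genes. Whether they belong to the enzymes or to the libraries as a whole was not tested. CBS KO 3 was the lowest knockout library for 41 of the 87 enzymes, against 24 for CBS KO 1 and 22 for CBS KO 2. Its difference from the other two had a correlation with log10 coding length of r = -0.53 (rho = -0.62) across the 87 genes. Of the 12 enzymes with a coding length of at least 6000 bases (CREBBP, EP300, KAT6A, KAT6B, KMT2A, KMT2B, KMT2C, KMT2D, NSD1, SETD2, TET1 and TET2), CBS KO 3 was lowest for 10. Of the 12, 8 were called lower and 2 higher, against 38.9% and 38.4% of all genes of any length. Their median log2 fold change was -0.39 against -0.17 for the other 75. The limit of 6000 bases was not set in advance, and across the 87 the log2 fold change did not follow log10 coding length (r = -0.01). With CBS KO 3 left out, the log2 fold change was -1.30 for EP300 and -0.52 for TET1, 0.70 for KMT2C and 0.85 for TET2, and the 10 called long enzymes stayed called in the same direction.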

How the data were processed

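The labels' protocols describe poly(A) mRNA from 3 WT and 3 CBS KO samples, sequenced as paired ends with strand marked by dUTP. Per the submitters' processing notes, GRCh38, edgeR, DESeq2, StringTie 2.1.6, HISAT2 2.2.1 and cutadapt 1.9 were used, in roles not given. The authors deposited estimated counts per gene (7.12 to 7.43% of values not whole), FPKM (per length and library total) and TPM (per length, summing to 1000000), per the file headers and values. How reads were assigned to genes is not given in the sources used here.

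Estimated counts were rounded, filtered with filterByExpr (13028 genes left), scaled by TMM and tested with edgeR's robust quasi-likelihood test (edgeR 4.0.16, R 4.3.3), adjusted over all genes, with a call at 0.05. The script was tested on simulated data. A count of 0 allows up to 3 counts, or 0.164 to 0.264 CPM, for counting error only. FPKM and TPM were tested with limma 3.58.1 as log2(value + 1), and TPM also with a pseudocount of 0.1. Other alternatives were DESeq2 1.42.0, its size factors, library totals, no filter, a mean of at least 5 CPM, a replicate block and leaving out each library. Levels are mean ± SD (n = 3). Gene positions and promoters are from RefSeq (GRCh38.p14, 82 of 90 members with a promoter), coding lengths from GENCODE.

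The members, classes and lists were chosen with earlier results of these data known. Every member could be named. Values by library are given for the most abundant member of each class, its largest called rise and fall, and the 12 largest called changes in each direction, with at least 5 CPM in the higher group. HDAC9, below that level, and the paired ratios were picked with their values in view. The authors' mean columns were not used. Of each other list, the 2 called genes with the largest change are named.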

Additional observations from a re-analysis of the deposited data

How the results depend on the processing

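Apart from the settings named here, the counts of called members and the values of the 41 members given by library kept their direction. Of these members' values, 553 stayed on their side of the threshold, 24 lost a call, 10 gained one and 27 turned. Under library totals 11 members were higher, the median was -0.53, and HDAC3 (-0.20), NSD2 (-0.31) and SUZ12 (-0.12) turned. In log2(FPKM + 1) 11 were higher, the median was -0.48, and HDAC3 (-0.19), NSD2 (-0.30) and SUZ12 (-0.084) turned. In log2(TPM + 1) 6 were higher, 70 lower, the median was -0.71, and HDAC3 (-0.42), HDAC6 (-0.0063), KDM3A (-0.14), KMT2C (-0.035), KMT5A (-0.062), NSD2 (-0.53), SETD5 (-0.15), SIRT2 (-0.023), SUV39H2 (-0.12) and SUZ12 (-0.31) turned. With a pseudocount of 0.1 in TPM 5 were higher, with KDM6A no longer called, 70 lower, the median was -0.79, and the same genes were at -0.42, -0.0064, -0.15, -0.041, -0.065, -0.54, -0.16, -0.023, -0.13 and -0.32. Without a filter the median was -0.23.

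Leaving out each library in turn gave 21 to 23 members higher, 41 to 47 lower and a median of -0.25 to -0.18, and NSD2 ranged from -0.014 without CBS KO 1 to 0.091 without CBS KO 3. The replicate block gave 24 members higher and 43 lower, as without it. Deviations of same-numbered libraries had correlations of 0.056, 0.011 and 0.029, and those of other pairs ran from -0.053 to 0.022. The labels do not say what the numbers mark, and these values cannot show whether same-numbered libraries were handled together. In FPKM the log2 change in the ratio of NSD3 to NSD1 was 2.35 in place of 2.52, that of NSD2 to NSD1 1.54 in place of 1.78 and that of CREBBP to EP300 0.88 in place of 0.99, alternatives chosen after seeing the data. Depth limits HDAC9, KDM4D, KDM8 and SIRT4, each with fewer than 50 counts over 1 group.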
